A study of Capra hircus with 6 samples.

Results

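COX1, COX2, COX3, CYTB and ATP6 are 5 protein genes of the mitochondrial genome (mtDNA), taken from the gene table by these symbols. All 5 were found among 11374 protein-coding genes, and all 5 were matched by gene number to the mitochondrial chromosome of the RefSeq goat annotation (assembly ARS1.2). They were counted in goat (Capra hircus) fibroblasts, the connective tissue cells that make extracellular matrix, from fetuses of 50 days. Cells exposed to 0.5 µg/mL GO-AgNP, graphene oxide carrying silver nanoparticles (3 libraries), were compared with cells at 0 µg/mL (3 control libraries). The time was 10 weeks in both groups. Cells of both groups were passaged every 2 to 3 days, and total RNA was depleted of ribosomal RNA and sequenced with a kit that records the strand. Whether replicates were grown separately is not stated, so p-values measure the spread between these libraries, which may be technical.

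The mtDNA of a mammal is copied into long transcripts from both of its strands, which are cut at the transfer RNAs between the genes. COX1, COX2 and COX3 encode the core of cytochrome c oxidase (complex IV), which passes electrons to oxygen. CYTB encodes cytochrome b, the mtDNA-encoded subunit of complex III, and ATP6 encodes a subunit of the proton channel of ATP synthase (complex V). The remaining mtDNA protein genes encode complex I subunits (ND genes) and ATP8, which is not analysed here. ND6 is the protein gene read from the strand opposite to all the others.

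The gene table held 155452 to 218493 reads per GO-AgNP library and 203786 to 245958 per control library, of which 1 unnamed gene, ENSCHIG00000018556, took 30.5% to 47.5% and 3.51% to 14.5%. Of 2148 genes with enough reads, 534 rose and 574 fell past an adjusted p of 0.05 in edgeR's quasi-likelihood test. Fibroblast markers dominated the marker lists, with 11 of 12 in the table and a summed level of 18852 to 23114 CPM in GO-AgNP and 11662 to 13396 CPM in control libraries (CPM are reads per 1000000 of a TMM-scaled library). Of the 7 that could be tested 5 rose, among them COL1A1 by 2.13-fold, and PDGFRA and FN1 did not pass (log2 -0.91 and -0.30, edgeR adjusted p = 0.0813 and 0.0922). With no scaling factor VIM and DCN lost their calls (edgeR adjusted p = 0.0536 and 0.159). DCN also lost its call with no filter (0.0941) and without control replicate 2 (0.0519). Among those too low to test, PDGFRB, FAP and LUM had 5, 7 and 14 GO-AgNP and 17, 17 and 23 control reads, and THY1 8 and 6. Summed over each list, markers of other cells were low. Of 8 epithelial markers 2 had a row, with 50 GO-AgNP and 0 control reads (KRT19 36 and KRT8 14 of them). Of 5 neural markers 1 had a row, SOX10, with 16 and 0 reads. Of 7 blood cell markers 3 had a row, with 94 and 89 reads and 149.0 to 255.3 against 79.0 to 151.1 CPM. Most of these reads were on CSF1R, which rose (log2 1.14, edgeR adjusted p = 0.0136). The CSF1R call was lost with no scaling factor (edgeR adjusted p = 0.163), with no filter (0.105) and without control replicate 1 (0.0742). The 1 of 6 endothelial markers with a row had 4 and 26 reads, and the 2 of 5 skeletal muscle markers 0 and 8. Their part in the results that follow was not tested.

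Few reads fell on the 5 genes. Together they had 203, 181 and 140 reads in GO-AgNP replicates 1 to 3, against 550, 586 and 423 reads in control replicates 1 to 3. That is 0.0988% ± 0.0155 of all gene reads after exposure, against 0.239% ± 0.0312 without it (SD over 3 libraries each). The ratio was 0.414, and the groups did not overlap. A two-sided exact permutation over libraries can give no p below 0.1 with 3 against 3, and gave that value here. The ratio depends on what the reads are set against: it was 0.616 with the most counted gene left out of the totals and 0.577 per TMM-scaled library. All 12 named mtDNA genes of the table together took 1.81% ± 0.366 of the GO-AgNP and 5.17% ± 0.463 of the control gene reads (SD over 3 libraries; permutation p = 0.1, exact). In bulk RNA, fewer mitochondria, less mtDNA and less RNA from each cannot be told apart. No source used here gives the strand setting of the counting. Reads of a gene and of RNA from the opposite strand therefore cannot be told apart, for mtDNA and nuclear genes alike. Reads shared with nuclear copies of mtDNA are uncertain in the same way. By mean scaled reads in control libraries ND6, on the other strand, ranked 3 of 2148 genes tested. ND5 ranked 7, ND4 27, CYTB 95, COX3 193, COX1 389, ATP6 1420 and COX2 1707. Whether the strand counted plays a part in this order was not tested. A gene said to fall did so in counted reads.

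The calls of the 5 genes differed. CYTB and COX3 fell, and COX1, COX2 and ATP6 did not pass the test. None of the 5 rose by edgeR, none was higher at an unadjusted p under 0.05 (0 genes), and DESeq2 also called 0 higher and 2 lower. The 2 of 5 called, 40.0%, stand beside 51.6% of all genes tested that were called in either direction. Both were called lower, beside 26.7% of all genes called lower. With 5 genes, neither share sets them apart. The median log2 fold change was -0.00 for the 5 genes and -0.02 for all genes tested. GO-AgNP and control libraries did not overlap in CPM for 3 of the 5, COX1, COX3 and CYTB, against 58.8% of all genes.

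**Figure D1:**
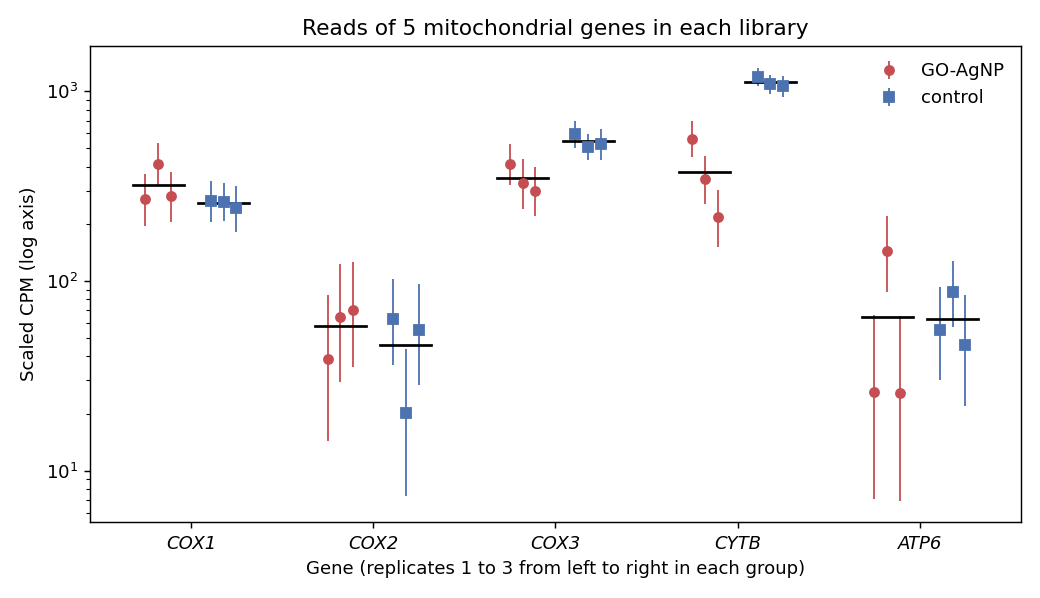
Scaled CPM (log axis) of COX1, COX2, COX3, CYTB and ATP6 in each library, GO-AgNP (circles) left of control (squares), with 95% counting intervals; black lines are group means of 3 libraries. CYTB lies between 217.0 and 563.7 CPM in the GO-AgNP and between 1066 and 1192 CPM in the control libraries, and the intervals of COX2 and ATP6 are wide.

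CYTB counted 87, 48 and 34 reads in GO-AgNP libraries and 302, 324 and 233 reads in control libraries, replicates 1 to 3 in order (gene ENSCHIG00000000035). In CPM this was 563.7, 343.5 and 217.0 in GO-AgNP libraries and 1192, 1088 and 1066 in control libraries. Every GO-AgNP library lay below every control library. The mean was 374.8 ± 175.5 CPM in GO-AgNP and 1115 ± 67.5 CPM in control cells (SD, n = 3 each), a 2.97-fold decrease (log2 -1.57 ± 0.23 SE, 95% interval -2.05 to -1.10, edgeR adjusted p = 9.57e-06). The controls varied no more than counting alone gives (variance 1.01 times that of counting), while the GO-AgNP libraries varied 12.7 times as much, and replicate 1 had 2.60 times the CPM of replicate 3. Without GO-AgNP replicate 3 the log2 fold change was -1.15, and without replicate 1 it was -1.98, both past the threshold.

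COX3, the third core subunit of complex IV, had 64, 46 and 47 reads in GO-AgNP and 151, 152 and 115 reads in control replicates 1 to 3 (ENSCHIG00000000023). Its level was 414.7, 329.2 and 300.0 CPM in GO-AgNP libraries against 596.1, 510.4 and 526.2 CPM in control libraries. The groups did not overlap. COX3 fell 1.56-fold, with means of 348.0 ± 59.6 CPM in GO-AgNP and 544.2 ± 45.7 CPM in control cells (SD, n = 3; log2 -0.64 ± 0.21 SE, edgeR adjusted p = 0.0118). The call rested on single libraries. It was lost without GO-AgNP replicate 2 (log2 -0.47, edgeR adjusted p = 0.104) and without GO-AgNP replicate 3 (log2 -0.41, edgeR adjusted p = 0.110).

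COX1, which carries the oxygen-binding centre of complex IV, had 42, 58 and 44 reads in GO-AgNP and 67, 78 and 53 reads in control replicates (ENSCHIG00000000016). Scaled, these were 272.2, 415.1 and 280.8 CPM in GO-AgNP and 264.5, 261.9 and 242.5 CPM in control libraries. All GO-AgNP libraries were above all control libraries by a narrow gap, and replicate 2 was the highest. The log2 fold change of 0.32 ± 0.24 SE did not pass (95% interval -0.18 to 0.83, edgeR adjusted p = 0.274), and with no scaling factor it turned to -0.12. The interval leaves room for COX1 up to 1.78-fold higher and reaches down to 0.883-fold.

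COX2, which holds the copper site that takes electrons from cytochrome c, had 6, 9 and 11 reads in GO-AgNP and 16, 6 and 12 reads in control replicates (ENSCHIG00000000019). Its CPM of 38.9, 64.4 and 70.2 in GO-AgNP libraries overlapped the 63.2, 20.1 and 54.9 of the control libraries. At 6 reads the 95% exact Poisson interval is 2.20 to 13.1 reads, counting error alone. The log2 fold change was 0.35 ± 0.57 SE (95% interval -0.83 to 1.53, edgeR adjusted p = 0.633), and it turned to -0.08 with no scaling factor. At this depth the interval holds ratios from 0.561 to 2.88.

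ATP6 had 4, 20 and 4 reads in GO-AgNP and 14, 26 and 10 reads in control replicates (ENSCHIG00000000022). Scaled, these were 25.9, 143.1 and 25.5 CPM in GO-AgNP and 55.3, 87.3 and 45.8 CPM in control libraries. GO-AgNP replicate 2 was above every control library and the other two were below every control library. The log2 fold change was -0.00 ± 0.53 SE (95% interval -1.10 to 1.10, edgeR adjusted p = 0.997), so the interval spans a decrease to 0.466-fold and an increase to 2.14-fold. Without GO-AgNP replicate 2 it was -1.16 (edgeR adjusted p = 0.174). ATP6 overlaps ATP8 and COX3 in the RefSeq annotation, and no source used here says how reads that cover 2 genes were counted.

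The reads of the 5 genes were divided differently in the groups. CYTB took 31.2% ± 10.1 of them in GO-AgNP and 55.1% ± 0.191 in control libraries, and COX1 took 28.1% ± 6.39 in GO-AgNP and 12.7% ± 0.578 in control libraries (SD over 3 libraries; permutation p = 0.1 for both, exact). The COX3 shares overlapped, at 30.2% ± 4.24 in GO-AgNP and 26.9% ± 0.809 in control libraries (SD over 3 libraries; permutation p = 0.4, exact). COX2 took 5.26% ± 2.46 and 2.26% ± 1.07, and ATP6 5.29% ± 5.01 and 3.12% ± 1.15, of the GO-AgNP and control reads. The control libraries were nearly alike, with CYTB at 54.9% to 55.3%, while the GO-AgNP libraries ranged from 24.3% to 42.9%.

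**Figure D2:**
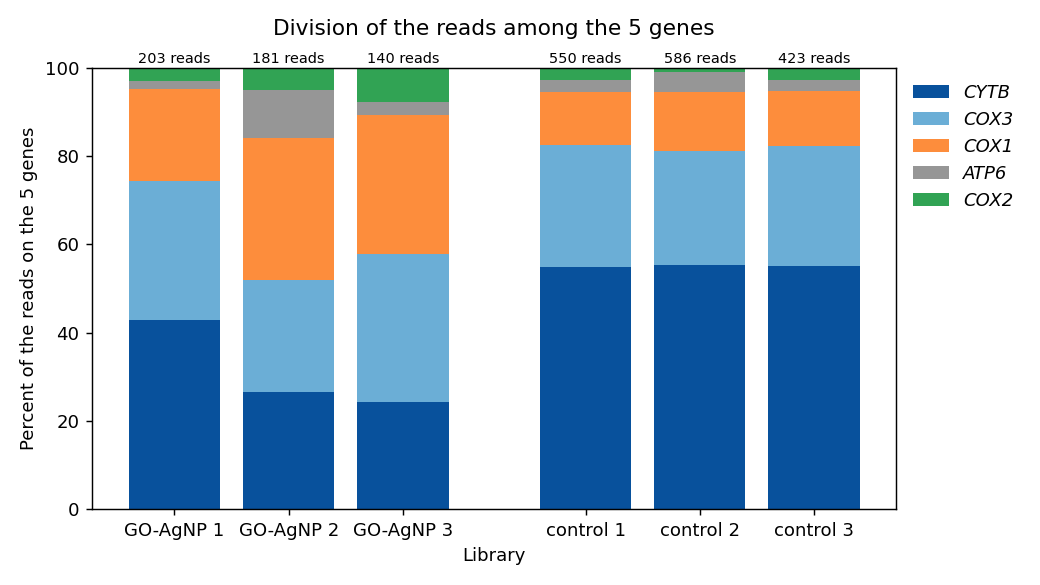
Percent of the reads on the 5 genes that each gene took, in GO-AgNP libraries (left) and control libraries (right), with the reads of all 5 above each bar. The CYTB part is 24.3% to 42.9% in GO-AgNP and 54.9% to 55.3% in control libraries, and the COX1 part 20.7% to 32.0% in GO-AgNP and 12.2% to 13.3% in control libraries.

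A ratio of 2 genes within a library needs no scaling, so ratios show whether members moved by different amounts. There were 2.07, 0.828 and 0.773 CYTB reads per COX1 read in GO-AgNP replicates 1 to 3, against 4.51, 4.15 and 4.40 in control replicates. The CYTB to COX1 ratio was below every control value in all 3 GO-AgNP libraries, with a mean log2 difference of -1.99. For COX3 per COX1 read the ratios were 1.52, 0.793 and 1.07 in GO-AgNP and 2.25, 1.95 and 2.17 in control libraries, a difference of -0.96 in log2. For CYTB per COX3 read they were 1.36, 1.04 and 0.723 in GO-AgNP and 2.00, 2.13 and 2.03 in control libraries, a difference of -1.02. These 3 ratios and that of CYTB to COX2 (log2 difference -2.12) did not overlap between the groups, out of 10 pairs compared. Each had an exact two-sided permutation p of 0.1, the smallest possible, and 0.25 after Benjamini-Hochberg adjustment over the 10 pairs, so none could pass. For the other 6 pairs, all with ATP6 or COX2, the groups overlapped and the log2 differences lay between -1.27 and 0.14.

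Position on the mtDNA is given next, as a description of these same calls, with no test. In the RefSeq order ND1, ND2, COX1, COX2, ATP8, ATP6, COX3, ND3, ND4L, ND4, ND5, ND6 and CYTB, the genes that fell stood at the end (ND5, ND6 and CYTB), at the start (ND1) and, alone in between, at COX3. CYTB follows ND6, which fell to 6377 ± 1397 CPM in GO-AgNP, against 23909 ± 597.9 CPM in control cells (SD, n = 3; log2 -1.91 ± 0.16 SE, edgeR adjusted p = 1.25e-08). The complex I genes ND1 and ND5 had log2 fold changes of -3.04 and -0.54 (edgeR adjusted p = 2.25e-05 and 0.00253). ND1 had 1, 4 and 8 reads in GO-AgNP and 71, 51 and 60 in control replicates. It passed the filter through the control libraries, so a lower value was nearly the only result open to it. ND2, ND3, ND4L and ND4 did not pass (log2 -0.07, 0.11, -0.16 and -0.18), although ND4 did with no scaling factor (log2 -0.62, edgeR adjusted p = 0.0369) and with no filter (log2 -0.44, edgeR adjusted p = 0.0266).

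**Figure D3:**
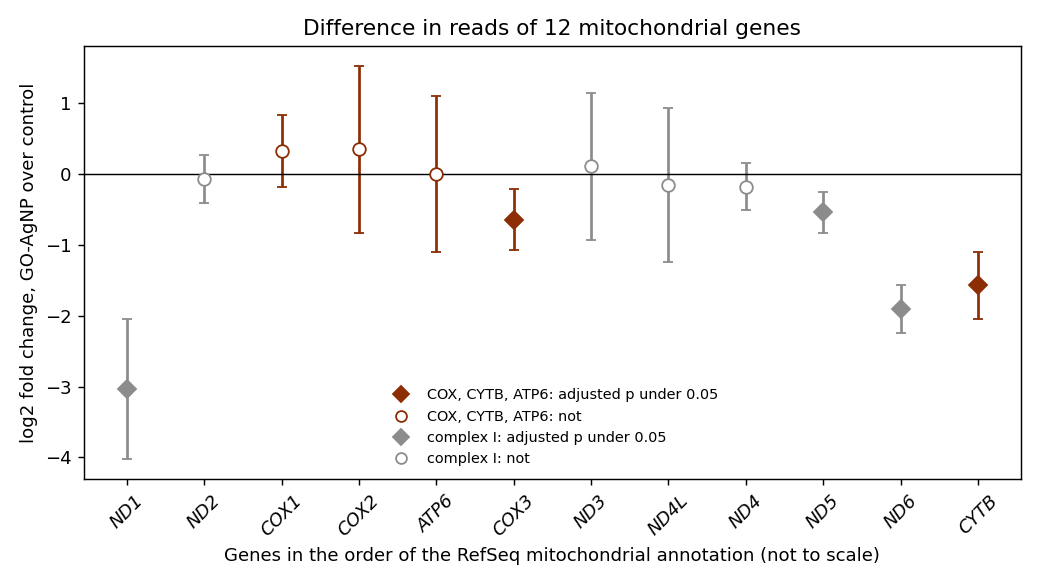
Log2 fold change, GO-AgNP over control, of 12 mtDNA genes in the RefSeq order, with 95% intervals; filled diamonds passed an adjusted p of 0.05 and open circles did not. CYTB (-1.57) lies beside ND6 (-1.91) at the right end, COX3 at -0.64, and COX1, COX2 and ATP6 have intervals that include 0.

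Set against ND6, the ratio of the 5 genes together was higher in every exposed library. There were 5.83 ± 2.70 ND6 reads per read of the 5 genes in GO-AgNP and 11.8 ± 0.790 in control libraries (SD over 3 libraries). The log2 ratio of the 5 genes to ND6 was -2.45 ± 0.617 in GO-AgNP and -3.56 ± 0.0978 in control libraries (SD over 3 libraries; permutation p = 0.1, exact, no overlap). CYTB did not follow this. It had 10.3, 6.03 and 2.72 reads per 100 ND6 reads in GO-AgNP and 5.01, 4.43 and 4.56 in control libraries, which overlap (exact permutation test p = 0.7). COX1 had 9.59, 10.02 and 9.93 reads per 100 ND4 reads in GO-AgNP and 6.37, 8.07 and 6.55 in control libraries, with no overlap (permutation p = 0.1, exact). CYTB had 4.29 ± 1.94 reads per 100 ND5 reads in GO-AgNP and 8.84 ± 0.581 in control libraries, with no overlap (SD over 3 libraries; permutation p = 0.1, exact). COX3 per 100 ND4 reads was 11.1 ± 3.36 in GO-AgNP and 14.8 ± 0.837 in control libraries (SD over 3 libraries; permutation p = 0.3, exact). COX3 per 100 ND5 reads was 4.01 ± 0.624 in GO-AgNP and 4.31 ± 0.358 in control libraries and overlapped (SD over 3 libraries; permutation p = 0.6, exact). COX1 per 100 ND2 reads was 25.7 ± 3.62 in GO-AgNP and 19.9 ± 2.38 in control libraries, with no overlap (SD over 3 libraries; permutation p = 0.1, exact). These 6 pairings were chosen after the values were seen.

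Of the 11 named mtDNA genes other than ND6, the 5 genes held 8.01% ± 1.25 of the reads in GO-AgNP and 10.1% ± 0.396 in control libraries (SD over 3 libraries; permutation p = 0.1, exact). The lower share lay with CYTB, at 2.58% ± 1.23 in GO-AgNP against 5.56% ± 0.219 in control libraries. With CYTB left out of both parts of the share, the remaining 4 genes held 5.57% in GO-AgNP and 4.80% in control libraries, so the direction turned.

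Nuclear genes of the same machinery were mostly too thinly counted to test. Of 169 genes in 9 nuclear lists, 75 had a row and 17 had enough reads, of which 1 rose, 7 fell and 9 did not pass (47.1% called; 51.6% of all genes). The median log2 fold change of these 17 was -0.87, against -0.02 for all genes tested. The genes that passed the filter are not the whole lists, and some of them (PNPT1, BCS1L, PRKAA1, TTC19, TFB1M and HSPA9) had under 10 reads in every GO-AgNP library and passed through the control libraries. For these a lower value was nearly the only result open, so the counts and the median are partly set by the filter and are given as a description.

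The partners of the COX genes in complex IV showed no call. Of 5 nuclear subunits in the table, COX7A1 could be tested and had 8, 23 and 28 reads in GO-AgNP and 30, 37 and 20 in control replicates (log2 0.23 ± 0.41 SE, edgeR adjusted p = 0.662). It turned to -0.18 with no scaling factor and -0.04 with no filter. COX5B, the next most counted, had 11 GO-AgNP and 20 control reads. Of 13 assembly factors in the table, COA1 could be tested, with 98 GO-AgNP and 204 control reads (log2 -0.30 ± 0.27 SE, edgeR adjusted p = 0.374), and 2 factors that make the heme of the enzyme went opposite ways with too few reads to test. COX10 had 4 GO-AgNP and 29 control reads, and COX15 had 30 GO-AgNP and 0 control reads.

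For complex III, to which CYTB belongs, 9 genes had a row and 2 could be tested, both of which passed the filter through the control libraries and fell. The other 7 had few reads, the most counted being UQCRQ, a subunit, with 24 GO-AgNP and 13 control reads. BCS1L, which inserts the iron-sulfur subunit, had 2, 1 and 3 reads in GO-AgNP and 16, 13 and 14 in control replicates, a 4.12-fold decrease (log2 -2.04 ± 0.70 SE, edgeR adjusted p = 0.0178). TTC19, which clears fragments of that subunit, had 0, 7 and 9 reads in GO-AgNP and 23, 31 and 21 in control replicates (log2 -1.43 ± 0.60 SE, edgeR adjusted p = 0.0492). Neither call was stable: BCS1L lost it without GO-AgNP replicate 1 (adjusted p = 0.0517) or 2 (0.0881) and with the replicate number as a block (0.0633). TTC19 lost it without GO-AgNP replicate 1 (log2 -0.82, adjusted p = 0.181) or 2 (0.0806) or control replicate 1 (0.0540) or 2 (0.0853), and in 3 other settings. Of the nuclear ATP synthase genes 5 had a row and all were too low to test, with ATP5F1B at 5 GO-AgNP and 2 control reads and ATP5F1D at 4 and 4.

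Among factors that make and process mtDNA transcripts, 3 of 14 in the table could be tested, 2 fell and 1 did not pass. PNPT1, the polynucleotide phosphorylase that degrades mitochondrial RNA, had 3, 0 and 1 reads in GO-AgNP and 49, 69 and 60 in control replicates, a 24.7-fold decrease (log2 -4.62 ± 0.57 SE, edgeR adjusted p = 1.36e-06). This size rests on 4 GO-AgNP reads: the log2 value was -5.87 without GO-AgNP replicate 1 and -4.00 without replicate 2. MTERF2, a member of the mitochondrial termination factor family, had 20, 24 and 35 reads in GO-AgNP and 106, 86 and 55 in control replicates (log2 -0.87 ± 0.28 SE, edgeR adjusted p = 0.0138). Its call was lost without GO-AgNP replicate 1 (adjusted p = 0.0719) or 2 (0.0691) or control replicate 1 (0.0878). TFB1M, which methylates mitochondrial ribosomal RNA, had 18 GO-AgNP and 68 control reads and did not pass (log2 -1.12, edgeR adjusted p = 0.0641).

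**Figure D4:**
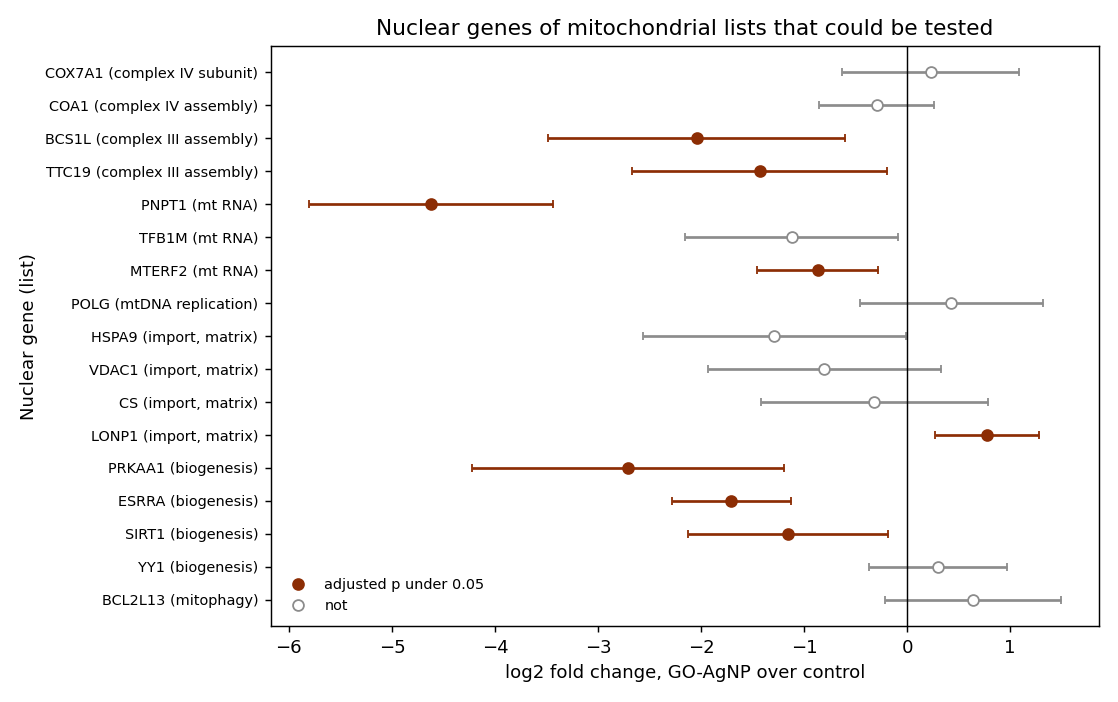
Log2 fold change, GO-AgNP over control, with 95% intervals, of the 17 nuclear genes of mitochondrial lists that had enough reads; filled points passed an adjusted p of 0.05. LONP1 is the gene called higher, and 7 genes were called lower, PNPT1 by the most (-4.62).

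Of 8 regulators of mitochondrial biogenesis with a row, 4 could be tested, 3 fell and YY1 did not pass (log2 0.30), beside 26.7% of all genes called lower. Of those that fell, PRKAA1 and SIRT1 passed the filter through the control libraries, so this count is partly set by the filter. Among those too low to test, PPARGC1B and PPRC1 had 4 and 7 GO-AgNP reads and 0 control reads each. NRF1 and GABPA went the other way, with 1 and 3 GO-AgNP reads and 8 and 5 control reads. ESRRA, a nuclear receptor that drives respiratory genes, had 16, 17 and 15 reads in GO-AgNP and 98, 91 and 78 in control replicates, a 3.26-fold decrease (log2 -1.70 ± 0.28 SE, edgeR adjusted p = 3.43e-05). PRKAA1, a catalytic subunit of the energy sensor AMPK, had 2, 3 and 0 reads in GO-AgNP and 25, 16 and 17 in control replicates (log2 -2.71 ± 0.73 SE, edgeR adjusted p = 0.00383). It passed in every alternative run, with log2 values of -1.997 without GO-AgNP replicate 3 (edgeR adjusted p = 0.0261) and -3.33 without GO-AgNP replicate 2. SIRT1, a deacetylase, had 6, 11 and 7 reads in GO-AgNP and 46, 26 and 20 in control replicates (log2 -1.15, edgeR adjusted p = 0.0440), a call lost without GO-AgNP replicate 1 (adjusted p = 0.145) or 3 (0.145) or control replicate 1 (0.244) and in 4 other settings. Among the called nuclear genes of the lists, TTC19, PNPT1, LONP1, ESRRA, SIRT1 and PRKAA1 have another RefSeq gene within 1 kb, MTERF2 has none, and BCS1L was not placed.

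Of 4 tested import, chaperone and matrix genes LONP1, the matrix protease that also binds mtDNA, rose, with 57, 41 and 59 reads in GO-AgNP and 47, 68 and 42 in control replicates (log2 0.77 ± 0.24 SE, edgeR adjusted p = 0.0110). The call depends on the scaling: with no scaling factor LONP1 was still higher but did not pass (log2 0.31, adjusted p = 0.376). The call was also lost with no filter (log2 0.50, adjusted p = 0.211) and without control replicate 1 (0.0878) or 3 (0.0557). VDAC1, HSPA9 and CS did not pass (log2 -0.80, -1.29 and -0.32). The mtDNA polymerase POLG (log2 0.43 ± 0.43 SE, edgeR adjusted p = 0.423) and the mitophagy receptor BCL2L13 (log2 0.64 ± 0.41 SE, edgeR adjusted p = 0.201) did not pass, and POLG turned to -0.02 with no scaling factor. TWNK, the mtDNA helicase, had 0 GO-AgNP and 10 control reads, and PINK1, the mitophagy kinase, 18 and 25, both too few to test.

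Finally, the genes with the most similar pattern were listed, by the root mean square difference in centred log2 CPM over the 6 libraries among 1764 other named genes. For CYTB these were RSBN1 (0.10), PAN2 (0.11) and BCDIN3D (0.16), with 18 and 103, 14 and 85, and 9 and 50 reads in GO-AgNP and control libraries. For COX3 they included BACE1 (0.12) and GEMIN5 (0.14), and for COX1 they were THBS1 (0.10), RPS16 (0.11) and BHLHE40 (0.13). The values of the low genes were less close, from 0.20 for OTUD5 to 0.21 for SLC2A3, with XG between, for COX2, and from 0.29 for CCDC148 to 0.38 for CARNMT1, with DLEC1 between, for ATP6. No mtDNA gene was among the 3 nearest of any member. All values share the same 6 libraries and scaling.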

How the data were processed

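The authors deposited raw counts of reads per gene and of back-splice junction reads per circRNA, per the file headers. CASAVA 1.8, BWA and build hg19 appear in the submitters' processing notes. The counter, its strand setting and annotation, and the tables' build: not given in the sources used here. Groups came from the labelled treatment and columns from headings equal to sample titles. The lncRNA table and 24 other per-sample columns (normalized values) were not used.

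Genes were tested with edgeR 4.0.16 in R 4.3.3 on all 6 libraries (TMM, filterByExpr with a minimum count of 10, glmQLFit, glmQLFTest), adjusted by Benjamini-Hochberg over 2148 genes. The script was tested on simulated data with far fewer changed genes than were called here. That simulation was not set up to mimic the shift of the most counted gene. Standard errors are the log2 fold change over the square root of F. Counting intervals are 95% exact Poisson and cover counting error only. Permutation tests were exact over 20 assignments. RefSeq (ARS1.2, 8761 genes matched by gene number) gave only gene order and neighbours within 1 kb. The 5 genes and all lists were chosen with earlier results of these data known. Text names the 5 genes, all listed mtDNA genes, per list each gene past the threshold or the 2 most counted, and for each of the 5 the 3 nearest genes, of which 1 is not reported here. Other genes of the nuclear lists, single markers and the ND ratios were named after their values were seen. Same-numbered libraries did not deviate together (correlations -0.02, -0.01 and -0.03), so numbers were not taken as pairs. Alternatives were DESeq2 1.42.0, other scalings and filters, a block and leaving out libraries. Other steps ran in pandas 2.3.3 and scipy 1.17.1 under Python 3.11.15.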

Additional observations from a re-analysis of the deposited data

How the results depend on the processing

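Depth limits COX2 and ATP6, with 26 and 28 GO-AgNP reads in all. CYTB kept its direction and its call in all 14 alternatives, with log2 values from -2.09 (no scaling factor) to -1.15. COX3 kept its direction, from -1.12 (no scaling factor) to -0.41, and lost its call without GO-AgNP replicate 2 or 3. Leaving out 1 library gave log2 values of 0.22 to 0.54 for COX1, -0.12 to 0.59 for COX2, -0.78 to -0.41 for COX3, -1.98 to -1.15 for CYTB and -1.16 to 0.50 for ATP6. COX1 and COX2 turned to -0.12 and -0.085 with no scaling factor. ATP6 turned to 0.035 with DESeq2 size factors, 0.15 with a mean count of at least 10 and 0.061 by the DESeq2 Wald test. With the replicate number as a block, CYTB was -1.64 and COX3 -0.65; among the genes refitted with it (the mtDNA genes and those the naming rule gives in each list) the block changed the calls of BCS1L and SIRT1, and its correlation check gives no ground for pairing. Scaling without the mtDNA-encoded genes, added after the data were seen, gave -1.58 for CYTB and -0.65 for COX3. Genes called higher numbered 326 with no scaling factor and 941 with no filter, and genes called lower 769 and 1165. The median log2 fold change over all genes tested was -0.47 with no scaling factor. With no filter it was -0.33, over 11374 genes. The share of gene reads differed by -0.0994 percentage points without the most counted gene and by -0.0857 per TMM-scaled library. Without CYTB the share of mtDNA reads other than ND6 differed by 0.772 percentage points and the log2 ratio to ND6 by 1.72. Leaving out 1 library, the COX3 to ATP6 log2 difference ran from -0.79 to 0.61 and that of COX2 to COX1 from -0.39 to 0.42. Among other named genes ND3 turned to -0.31 with no scaling factor and -0.15 with no filter, COX7A1 to -0.18 and -0.038, POLG to -0.017 with no scaling factor, and ND2 to 0.074 with a mean count of at least 10. Without 1 library ND2 ran from -0.21 to 0.15, ND3 from -0.20 to 0.58, ND4 from -0.36 to 0.040 and ND4L from -0.54 to 0.10. The cause of these changes was not tested.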

Other observations

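The deposited annotation assigns 51 genes of the table to oxidative phosphorylation, a set read after the other values were seen. Of these, 14 had enough reads to test, and 12 of the 14 were the mtDNA-encoded genes. The other 2 were NDUFS3, a nuclear complex I subunit, and ATP6V1G1, a subunit of the proton pump of acidic organelles. NDUFS3 had 1, 1 and 3 reads in GO-AgNP and 12, 19 and 12 in control replicates (log2 -2.27 ± 0.73 SE, edgeR adjusted p = 0.0124), and passed the filter through the control libraries. ATP6V1G1 had 22, 4 and 10 reads in GO-AgNP and 11, 15 and 8 in control replicates and did not pass (log2 0.84 ± 0.55 SE, edgeR adjusted p = 0.209).

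Of 3503 circRNAs listed, 1 lay on the mitochondrial chromosome, an intergenic one of 177 nt with 1 junction read, in GO-AgNP replicate 2, and 0 had COX1, COX2, COX3, CYTB or ATP6 as host gene. A single read allows no comparison between the groups.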
